A study of Homo sapiens with 48 samples.

Results

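The subject is 5 genes of the CUL3 ubiquitin ligase in U2932, a human cell line from diffuse large B-cell lymphoma: the substrate adaptors KLHL6, KLHL14 and KEAP1, the scaffold CUL3 and the RING subunit RBX1. The members were chosen by name, and all 5 had a row in each of the 3 experiments, of 60558 gene rows for coculture, 14009 for knockout tumours and 34843 for NOTCH2 mutant tumours. RNA was sequenced in 48 libraries, in 16 groups with n = 3 libraries each. In the coculture, WT and KLHL6-KO cells were collected at 0, 3, 8 and 12 h with OP9-DLL1, a mouse stromal line made to present the NOTCH ligand DLL1. The knockout tumours grew from cells of 4 labels: WT, with the genotype KLHL6+/+NOTCH2+/+; K6-KO, with KLHL6-/-NOTCH2+/+; N2-KO, in which only NOTCH2 is altered (KLHL6+/+NOTCH2-/-); and DKO, which carries both changes (KLHL6-/-NOTCH2-/-). The mutant tumours grew from cells with stable expression of a NOTCH2 form, either the unmutated NOTCH2(WT), the substitution NOTCH2(S2156A), or one of the stop variants NOTCH2(R2400*) and NOTCH2(Q2140*). Every tumour, controls included, was a xenograft in an NSG mouse, a strain that lacks its own lymphocytes, was treated with CHOP (prednisone, vincristine, doxorubicin and cyclophosphamide) and was taken at 1 cm3. How the knockouts and the expression constructs were made, and whether a genotype is a single clone, does not appear among the sources used here. The labels number biological replicates without saying whether these were separate cultures or animals, so a p-value covers only the spread seen among these samples.

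Cullin-RING ligases transfer ubiquitin to proteins that an interchangeable adaptor brings in. In the CUL3 branch the adaptor is a BTB-domain protein that binds CUL3 through its BTB domain and the substrate through a second domain, often a kelch propeller, and RBX1 docks the ubiquitin-charged E2 enzyme on the other end of CUL3. KLHL6 is a BTB-kelch adaptor of B cells that is recurrently mutated in this lymphoma, and its known substrates include the mRNA-decay protein roquin-2, encoded by RC3H2. KLHL14 is a further B-cell adaptor, mutated in the activated B-cell type of the disease and known to promote turnover of B-cell receptor subunits. KEAP1 is the adaptor that keeps the oxidative stress factor NRF2 (NFE2L2) low. All of these work as proteins, and the values here are RNA levels.

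On GRCh38 with GENCODE 29, KLHL6 (ENSG00000172578) lies on chromosome 3 at 183487531 to 183555689 on the minus strand, and its RefSeq promoter window was poor in CpG. KLHL14 (ENSG00000197705) lies on chromosome 18 at 32672671 to 32773062, KEAP1 (ENSG00000079999) on chromosome 19 at 10486120 to 10503741 and CUL3 (ENSG00000036257) on chromosome 2 at 224470150 to 224585397, all on the minus strand. RBX1 (ENSG00000100387) lies on chromosome 22 at 40951347 to 40973309 on the plus strand. The 250 bases before the RefSeq start (GRCh38.p14) are shown for KLHL6, CUL3, RBX1 and KEAP1 because the windows differ in CpG content, and KLHL14 is not shown. In KLHL6, capitals mark GGAA on either strand and CAGCTG. In CUL3, RBX1 and KEAP1, capitals mark CpG.
KLHL6, chr3:183555707-183555956, minus strand: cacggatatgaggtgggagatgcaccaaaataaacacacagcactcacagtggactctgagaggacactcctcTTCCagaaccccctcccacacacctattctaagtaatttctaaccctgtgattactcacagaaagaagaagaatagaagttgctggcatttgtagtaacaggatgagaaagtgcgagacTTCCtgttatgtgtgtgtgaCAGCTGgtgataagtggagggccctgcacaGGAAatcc
CUL3, chr2:224585364-224585613, minus strand: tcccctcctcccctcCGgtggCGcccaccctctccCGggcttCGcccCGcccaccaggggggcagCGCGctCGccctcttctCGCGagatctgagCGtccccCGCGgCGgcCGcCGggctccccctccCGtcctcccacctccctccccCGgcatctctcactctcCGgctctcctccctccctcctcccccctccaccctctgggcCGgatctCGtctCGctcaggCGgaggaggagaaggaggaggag
RBX1, chr22:40951128-40951377, plus strand: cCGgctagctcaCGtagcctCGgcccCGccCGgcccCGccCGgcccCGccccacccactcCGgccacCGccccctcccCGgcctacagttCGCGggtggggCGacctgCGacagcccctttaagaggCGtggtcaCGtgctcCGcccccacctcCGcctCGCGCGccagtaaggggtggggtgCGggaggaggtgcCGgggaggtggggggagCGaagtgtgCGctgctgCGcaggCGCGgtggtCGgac
KEAP1, chr19:10503357-10503606, minus strand: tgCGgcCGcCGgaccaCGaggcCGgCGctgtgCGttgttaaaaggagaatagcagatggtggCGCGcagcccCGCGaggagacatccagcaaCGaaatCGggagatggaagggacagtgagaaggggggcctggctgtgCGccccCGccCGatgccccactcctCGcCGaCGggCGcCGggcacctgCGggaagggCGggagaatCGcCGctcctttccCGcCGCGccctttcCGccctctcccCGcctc
The KLHL6 window held 2 CpG and 46.8% G+C, and 14.7% of the 35116 RefSeq windows of the same length held fewer CpG. The windows printed for CUL3, RBX1 and KEAP1 held 23, 30 and 30 CpG at 74.8%, 76.8% and 70.4% G+C, against medians of 11 CpG and 58% over all windows. KEAP1 has a further RefSeq start whose window held 32 CpG, and CUL3 has one with 1 CpG. GGAA, the core letters that ETS factors bind, occurred 3 times in the KLHL6 window and, on either strand, in 92.7% of all windows. CAGCTG, an E-box, occurred once in it, 38 bases before the start, and in 14% of all windows. TGACNNNGC, core letters of the element that NRF2 binds, occurred 1 time in the RBX1 window, in neither strand of the other windows printed, 2 times in the window of the further KEAP1 start, and in 10.9% of all windows. TGGGAA, core letters of the NOTCH partner RBPJ, was found on neither strand of any of these windows and in 20.8% of all windows.

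The libraries held 11.1 M to 17.4 M reads in coculture, 3.7 M to 15.2 M in the knockout tumours, where DKO replicate 3 was the lowest, and 12.7 M to 17.1 M in the mutant tumours. In the knockout tumours, WT replicate 1 had the lowest similarity to its own group (median r over genes 0.983), followed by the 3 DKO libraries (0.985 to 0.987). All 10 B-lineage markers were present in every group, with summed normalised counts of 48541 to 95960 over the libraries. The 3 experiments were normalised separately, so no level is compared between them. Differences are log2 ± SE from limma with Benjamini-Hochberg adjustment over all genes tested, and a gene is called at an adjusted p under 0.05. The median log2 difference over all genes lay between -0.00798 and 0.00177 in the 23 comparisons.

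Per unit of transcript length, KLHL6 was among the most abundant of the CUL3 adaptor transcripts listed, and KLHL14 was far down the list. The scale is the normalised count per 1000 bases of the union of annotated exons. The list holds KLHL6, KLHL14 and KEAP1 with those of a chosen set of other KLHL-family and BTB genes that had a row. It does not hold every BTB gene, so ranks and shares are within this list. In WT cells at 0 h, KLHL6 stood at 511 ± 70.9 (SD, n = 3), rank 2 of 70 adaptors after BTBD1 at 587, and made up 10.3% of the summed adaptor level. KEAP1 stood at 212 ± 18.8 and rank 4, and KLHL14 at 16.7 ± 1.72 and rank 47. At the same time point CUL3 was at 73.5 ± 1.94 and RBX1 at 325 ± 40.1. On this scale the KLHL6 level was 6.95 times and the RBX1 level 4.42 times that of CUL3. In KLHL6-KO cells at 0 h, KLHL6 was at 226 ± 16.8, rank 4 and 2.73 times CUL3, and KEAP1 had rank 2.

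KLHL6 also ranked high in the tumours, within each experiment. In the WT tumours KLHL6 was at 415 ± 73.5 per 1000 bases and rank 3 of 56 adaptors, after BTBD1 and KBTBD8. In the NOTCH2(WT) tumours KLHL6 was at 1613 ± 129 and rank 1 of 67, with 18% of the summed adaptor level and 13.5 times the level of CUL3. In the NOTCH2(Q2140*) tumours the share was 14.5% and the ratio to CUL3 was 7.26, since KLHL6 was lower and CUL3 higher there. KLHL14 ranked between 36 and 50 in the 16 groups. With the longest coding transcript as the length, chosen after seeing the data, KLHL6 took rank 1 in WT cells at 0 h (856 ± 119), rank 2 in the WT tumours and rank 1 in the NOTCH2(WT) tumours. On that length KEAP1 had rank 6 in WT cells at 0 h. In KLHL6-KO cells at 0 h KLHL6 then had rank 2 and KEAP1 rank 3. The ratios to CUL3 in WT cells at 0 h were then 6.82 for KLHL6 and 6.74 for RBX1, so the gap between these 2 depended on the length used.

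**Figure D1:**
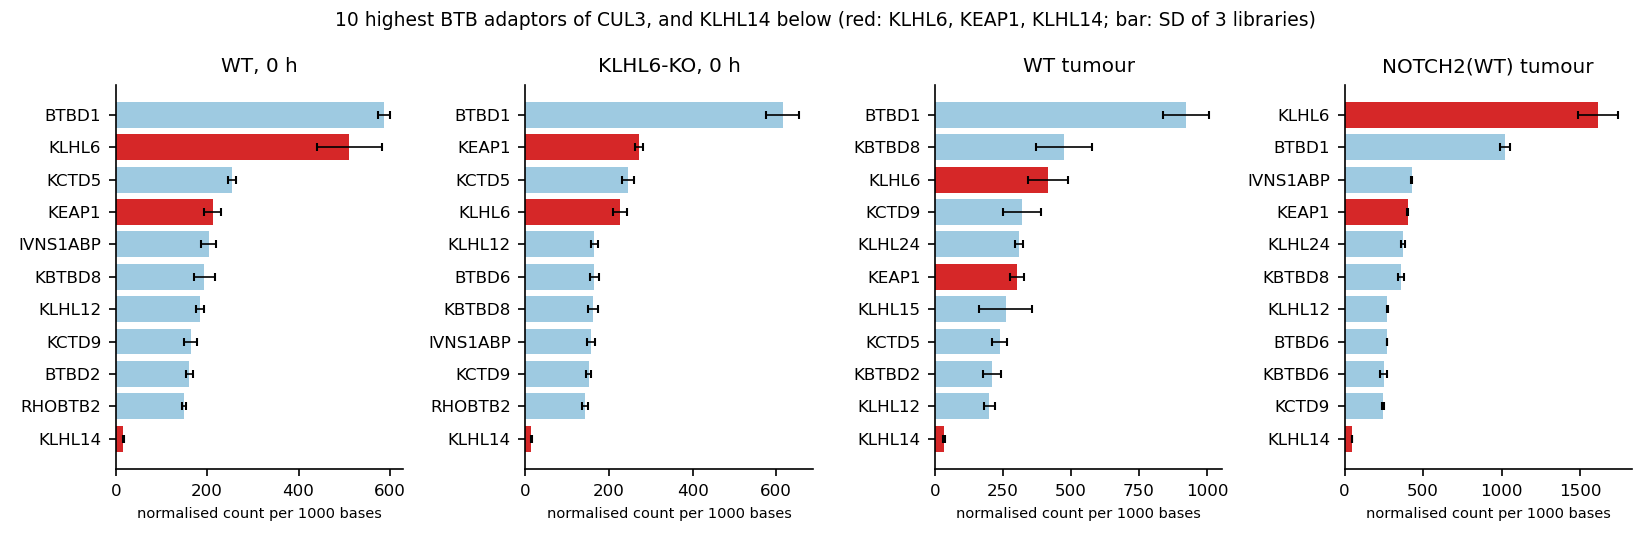
Levels of the 10 highest of the listed BTB adaptors of CUL3, and of KLHL14, in 4 groups. The horizontal axis is the normalised count per 1000 exon bases. Bars give the mean and whiskers the SD of 3 libraries, with KLHL6, KEAP1 and KLHL14 in red. KLHL6 has rank 2 in WT cells, rank 4 in KLHL6-KO cells, rank 3 in WT tumours and rank 1 in NOTCH2(WT) tumours, and KLHL14 is far below the 10 genes shown above it in each panel.

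KLHL6-KO cells had less KLHL6 RNA than WT cells at all 4 times, but the transcript was not lost. The main fit over all 24 libraries, without a block for replicate number, called no change with time on OP9-DLL1. At 0 h the WT libraries held 6123, 5416 and 4629 normalised counts of KLHL6 and the KLHL6-KO libraries 2539.5, 2414 and 2191. At 3 h the WT libraries held 4523, 4342 and 4436 and the KLHL6-KO libraries 2900.2, 3060.4 and 2637. The groups did not overlap at either time, and the gap was narrowest at 3 h, where WT was at its lowest mean and KLHL6-KO at its highest. At 8 h WT held 5735, 4135 and 4213 against 2476, 1915 and 1924, and at 12 h 5914, 5445 and 4837 against 2645, 2449 and 2326. The groups did not overlap at these times either. At 0 h the KLHL6-KO mean was 44.2% of the WT mean, a log2 difference of -1.17 ± 0.12 (adjusted p = 1.76e-06). At 3 h it was -0.63 ± 0.12 (adjusted p = 0.00305) and 8 h gave -1.15 ± 0.12 (adjusted p = 9.76e-06). At 12 h it was -1.12 ± 0.12 (adjusted p = 1.17e-05). Of all genes tested, 26.1% were called at 0 h, 7.82% at 3 h, 4.34% at 8 h and 3.39% at 12 h.

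Against 0 h, no change of KLHL6 was called within WT or within KLHL6-KO cells in that fit, but other fits did call some. The WT difference at 3 h was -0.27 ± 0.12 (95% interval -0.52 to -0.03, adjusted p = 0.0724) and the KLHL6-KO difference was 0.27 ± 0.12 (0.02 to 0.51, adjusted p = 0.0999), both with no overlap between the times. Fitted on the compared groups alone, both were called (adjusted p = 0.0136 in WT and 0.00196 in KLHL6-KO). In the main fit the joint test of genotype by time was not called for KLHL6 (mean of its 3 terms 0.20 ± 0.14, adjusted p = 0.0983). The WT difference at 3 h was called without WT 0 h replicate 3 (-0.38, adjusted p = 0.0256) and that at 8 h, -0.21 ± 0.12 with all libraries (adjusted p = 0.169), without WT 8 h replicate 1 (-0.36, adjusted p = 0.00908). The genotype by time test was called without KLHL6-KO 8 h replicate 1 (adjusted p = 0.0378) and without WT 8 h replicate 1 (adjusted p = 0.0353). With a replicate block, limma called KLHL6 in WT at 3 and 8 h (adjusted p = 0.00103 and 0.0104). That fit also called it in KLHL6-KO at 3 and 8 h (0.00192 and 0.0287) and by genotype and time (0.000202). Replicate 1 held the highest KLHL6 value in 7 of the 8 coculture groups, but replicate numbers were not taken to pair the samples. An antisense gene, KLHL6-AS1, overlaps KLHL6 and held 0 to 2 reads per coculture library.

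KEAP1, the NRF2 adaptor, changed most of the 5 members in WT cells at 3 and 8 h on OP9-DLL1. Its change with time differed between genotypes. In WT cells it went from 739.5, 781 and 877 normalised counts at 0 h to 1571, 1506 and 1512 at 3 h, then 1242, 1270.4 and 1243 at 8 h and 891, 965 and 858 at 12 h. In KLHL6-KO cells it went from 1067, 999 and 1006 to 1414, 1411 and 1373, then 1117, 1159 and 1175 and finally 919, 1086 and 995. All 3 h and 8 h libraries of a genotype lay above all of its 0 h libraries, and at 12 h the ranges overlapped with 0 h in both genotypes. The WT rise was 0.94 ± 0.06 at 3 h (adjusted p = 2.21e-14), 0.65 ± 0.06 at 8 h (adjusted p = 1.65e-10), and at 12 h it was 0.18 ± 0.06 (adjusted p = 0.0172). The KLHL6-KO rise was 0.45 ± 0.06 at 3 h (adjusted p = 6.55e-07), and for 8 h it was 0.17 ± 0.06 (adjusted p = 0.0356). At 12 h the KLHL6-KO difference was -0.04 ± 0.06 (adjusted p = 0.674). The WT call at 12 h was lost without WT 0 h replicate 1, WT 0 h replicate 2 or WT 12 h replicate 2 (adjusted p 0.0588 to 0.13), and the KLHL6-KO call at 8 h without either of replicates 2 and 3 of either time (adjusted p 0.0842 to 0.111). The genotype by time test was called, with a mean term of -0.40 ± 0.07 (adjusted p = 0.000403), in 1 of 5 members against 12.4% of all genes.

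Between genotypes KEAP1 was called at 0 h only, and its differences at 3 and 8 h had the opposite sign. At 0 h KEAP1 was higher in KLHL6-KO cells by 0.36 ± 0.06 (adjusted p = 7.4e-05), with every KLHL6-KO library above every WT library. The difference was -0.13 ± 0.06 at 3 h, -0.12 ± 0.06 at 8 h and 0.14 ± 0.06 at 12 h (adjusted p = 0.23, 0.324 and 0.274). At 3 and 8 h every KLHL6-KO library lay below every WT library, and at 12 h the ranges overlapped. The 95% interval at 3 h was -0.253 to -0.0036, although the unadjusted limma p was 0.0517. At 0 h the summed stroma markers were also lower in KLHL6-KO (201 to 220.1 normalised counts) than in WT (303 to 356). VIM, a gene of that list that is not particular to fibroblasts, was at 0 to 2.86 in WT and 0 to 0.978 in KLHL6-KO. Their part in the KEAP1 difference was not tested.

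CUL3, the scaffold, rose at 3 and 8 h in both genotypes, in WT cells by less than KEAP1. WT libraries held 832, 833 and 871 normalised counts at 0 h, 1148, 1204 and 1192 at 3 h, 1164, 1019 and 1077 at 8 h and 880.1, 1037 and 989.8 at 12 h. KLHL6-KO libraries held 986, 941 and 927 at 0 h, 1181, 1174 and 1219.5 at 3 h, 1031, 1127 and 1117 at 8 h and 954, 1057 and 994 at 12 h. Every later WT library lay above the 0 h range, and in KLHL6-KO cells the 12 h libraries overlapped with it. The WT rise was 0.48 ± 0.06 at 3 h (adjusted p = 6.12e-08), 0.36 ± 0.06 at 8 h (adjusted p = 1.06e-05), and at 12 h it was 0.19 ± 0.06 (adjusted p = 0.0104). The KLHL6-KO rise was 0.32 ± 0.06 at 3 h (adjusted p = 8.57e-05), and 8 h gave 0.20 ± 0.06 (adjusted p = 0.0126). Leaving out WT 12 h replicate 2 ended the WT call at 12 h (adjusted p = 0.083), and the KLHL6-KO call at 8 h ended without KLHL6-KO 0 h replicate 3, 8 h replicate 2 or 8 h replicate 3 (adjusted p up to 0.0588). At 0 h CUL3 was higher in KLHL6-KO than in WT cells by 0.17 ± 0.06 (adjusted p = 0.0439), a call that held in 1 of 6 fits leaving out a library, the fit without WT 0 h replicate 3 (adjusted p = 0.0316, others up to 0.147). Genotype by time was not called (-0.15 ± 0.07, adjusted p = 0.46).

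RBX1, the RING subunit, was called in WT cells at 3 and 8 h and in no other coculture comparison. WT libraries held 930.1, 937 and 1148 normalised counts at 0 h and 1305, 1332 and 1175 at 8 h, while the KLHL6-KO libraries stayed between 1028 and 1214 over all times. The 8 h WT libraries all lay above the 0 h range, by a narrow margin for the lowest. The rise at 8 h was 0.34 ± 0.07 (adjusted p = 0.000114), and at 3 h 0.17 ± 0.07 (adjusted p = 0.048) with overlapping ranges, a call lost without WT 0 h replicate 1 or 2 and without WT 3 h replicate 1 or 3 (adjusted p 0.0885 to 0.23). No RBX1 difference was called within KLHL6-KO cells or between genotypes with all libraries. Without WT 0 h replicate 3, the highest library at 0 h, RBX1 was called higher in KLHL6-KO at 0 h (0.23, adjusted p = 0.0105), higher in WT at 12 h than at 0 h (0.24, adjusted p = 0.00345) and in the genotype by time test (adjusted p = 0.018).

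KLHL14 fell in coculture, from a low level. WT libraries held 92.9, 81.1 and 76.3 normalised counts at 0 h, 55.8, 47.7 and 52.3 at 3 h, 57.4, 60.4 and 60.0 at 8 h and 59.1, 56.4 and 67.6 at 12 h. KLHL6-KO libraries held 72.4, 72.6 and 71.4 at 0 h, 62.3, 42.1 and 48.6 at 3 h, 59.8, 59.0 and 72.2 at 8 h and 69.0, 63.8 and 71.1 at 12 h. In WT cells every later library was below every 0 h library. The WT fall was -0.66 ± 0.14 at 3 h (adjusted p = 0.000186), -0.47 ± 0.14 at 8 h (adjusted p = 0.00529), and at 12 h it was -0.44 ± 0.14 (adjusted p = 0.0104), the last not called once WT 0 h replicate 1 was left out (adjusted p = 0.066). In KLHL6-KO cells the fall at 3 h was -0.50 ± 0.14 (adjusted p = 0.00507), not called once KLHL6-KO 3 h replicate 2 was left out (adjusted p = 0.0559), and no difference was called at 8 or 12 h. The genotypes did not differ beyond the threshold at any time (differences from -0.20 to 0.15), and genotype by time was not called (0.27 ± 0.17, adjusted p = 0.536). These values rest on 46 to 98 reads per library.

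**Figure D2:**
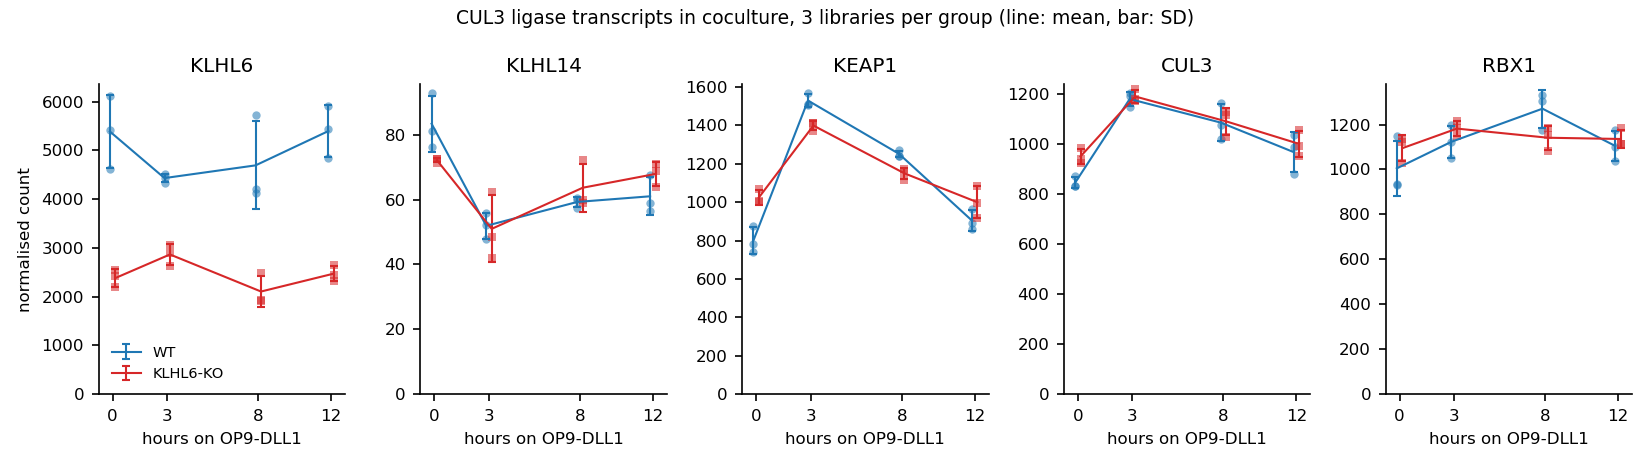
Normalised counts of the 5 members against hours on OP9-DLL1 (points, libraries; lines, group means; bars, SD of 3 libraries; blue circles WT, red squares KLHL6-KO). KLHL6 is lower in KLHL6-KO at all 4 times, KEAP1 and CUL3 are highest at 3 h, and KLHL14 is highest at 0 h.

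Counted by member, 4 of 5 were called in WT cells at 3 h and 4 of 5 at 8 h, where 54.8% and 56.2% of all genes were called, and 3 of 5 at 12 h against 53%. In KLHL6-KO cells 3 of 5 were called at 3 h, 2 of 5 at 8 h and 0 of 5 at 12 h, against 39.1%, 37.8% and 40.5% of all genes (limma, none of the 5 members under an unadjusted p of 0.05 at 12 h, and 0 of 5 called by edgeR and by DESeq2). Between genotypes 3 of 5 were called at 0 h, against 26.1% of all genes, and 1 of 5, KLHL6, at 3, 8 and 12 h, against 7.82%, 4.34% and 3.39%. The summed stroma markers were higher at the later times, at 462 to 1056 against 303 to 356 at 0 h in WT and at 351 to 605 against 201 to 220.1 at 0 h in KLHL6-KO, over 16 markers with a row. VIM was at 0 to 2.86 at 0 h and 71.3 to 205 later, and THY1, a fibroblast surface gene, at 0 in every 0 h library and at most 1.05 later. Their part in the time courses was not tested.

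The rest of the CUL3 machinery was described by lists. In WT cells at 3 h, 27.2% of all genes were called higher and 27.6% lower. Of the 8 genes in the list of other cullins and their RING partner RNF7, 4 were higher and 1 was lower (median 0.14), among them CUL5 (0.43 ± 0.07) and CUL4A (0.36 ± 0.05), scaffolds of sister ligases, with CUL9 lower (-0.47 ± 0.10). Of 9 E2 and ARIH enzymes, which hand ubiquitin to cullin ligases, 4 were higher and none lower, including UBE2D3 (0.41 ± 0.05). Of the 9 COP9 signalosome subunits, which strip the activating NEDD8 from cullins, 4 were higher and 1 was lower, with COPS3 at 0.43 ± 0.06. Of 13 neddylation and cullin exchange genes tested, 3 were higher and 3 lower. These shares lie on both sides of the 54.8% of all genes.

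Among the adaptors, the other KLHL-family genes had 16 of 35 higher and 11 lower in WT cells at 3 h (median 0.18). KLHL21, an adaptor that acts on Aurora B in mitosis, rose from a mean of 433 to 1202 normalised counts, by 1.47 ± 0.06 (adjusted p = 3.65e-19), and KLHL18 by 0.86 ± 0.07. Of 19 other BTB adaptors, 8 were higher, such as BTBD6 (0.82 ± 0.08), and 4 lower, such as RHOBTB3 (-1.41 ± 0.11). KEAP1 itself, at 0.94, was therefore not the adaptor with the largest rise. In KLHL6-KO against WT cells at 0 h, 4 of 35 other KLHL-family genes were higher and 9 lower (median -0.19), among them KLHL24 (-0.75 ± 0.11), and 13.7% of all genes were higher and 12.5% lower. RHOBTB3 was lower there too (-0.98 ± 0.11), and 3 of 9 COP9 subunits were higher, GPS1, COPS5 and COPS2 at 0.30, 0.24 and 0.22.

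NRF2 and its target genes, on which KEAP1 acts through the protein, changed in both directions. Of 24 in WT cells, 5 were higher and 3 lower at 3 h, against 27.2% and 27.6% of all genes, with the autophagy receptor SQSTM1 at 1.07 ± 0.05 and the haem oxygenase HMOX1 at 0.77 ± 0.11. At 12 h 1 was higher and 15 were lower (median -0.24), where 27.1% of all genes were higher and 25.9% lower. HMOX1 was then at -0.91 ± 0.11, the ferritin light chain FTL at -0.61 ± 0.08 and the heavy chain FTH1 at -0.41 ± 0.06. In KLHL6-KO against WT at 0 h 3 were higher and 2 lower, against 13.7% and 12.5% of all genes, and genotype by time called 3 of 24, against 12.4%.

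A further list held 6 genes, for reported KLHL6 and KLHL14 substrates, B-cell receptor subunits and TNFAIP3. Of these, RC3H2 rose in WT cells at 3 h by 0.53 ± 0.13, with CD79A and CD79B, the signalling chains of the receptor, at 0.24 and 0.38. In KLHL6-KO against WT cells at 0 h, IGHM, the receptor heavy chain, was higher by 0.39 ± 0.07 and CD79B by 0.23 ± 0.07. TNFAIP3, a brake on NF-kB signalling, was lower, at a log2 difference of -0.33 ± 0.09. NOTCH2 RNA was lower at 0 h, at a log2 difference of -0.66 ± 0.18 (adjusted p = 0.0102). It was not called at 3 h (-0.39 ± 0.18, limma adjusted p = 0.203) or at 8 h (0.30 ± 0.18, limma adjusted p = 0.417). At 12 h the NOTCH2 means were 332 in KLHL6-KO and 325 in WT cells.

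In the knockout tumours, KLHL6 RNA was higher in the tumours labelled K6-KO than in the WT tumours. How the knockouts were made is not known here, so the transcript level cannot check that label. The WT tumours held 3478, 4781 and 4856 normalised counts of KLHL6, the tumours labelled K6-KO 6289, 6276 and 7045, those labelled N2-KO 7996, 6397 and 7905 and those labelled DKO 3554, 5266 and 4902. All libraries labelled K6-KO and N2-KO lay above all WT and DKO libraries, and the WT and DKO ranges overlapped. The difference from WT was 0.59 ± 0.15 in labelled K6-KO (adjusted p = 0.013) and 0.77 ± 0.15 in labelled N2-KO (adjusted p = 0.0012), and 0.06 ± 0.15 in labelled DKO (95% interval -0.23 to 0.36, adjusted p = 0.833). The call for labelled K6-KO was lost without its replicate 3 (adjusted p = 0.0661). NOTCH2 RNA, the other targeted transcript, stood at 420.2, 850.3 and 909 in WT, 447, 492 and 458 in labelled K6-KO, 329, 448 and 292 in labelled N2-KO and 612, 562 and 530.5 in labelled DKO, and was lower in labelled N2-KO, at a log2 difference of -0.97 ± 0.21 (adjusted p = 0.00303).

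For KLHL6 the tumours labelled DKO stood near WT and below both single labels. Labelled DKO was below labelled N2-KO, at a log2 difference of -0.71 ± 0.15 (adjusted p = 0.00751), and below labelled K6-KO, at a log2 difference of -0.53 ± 0.15 (adjusted p = 0.03). The difference from labelled N2-KO was not called without DKO replicate 1 (adjusted p = 0.0581), and that from labelled K6-KO was called in 1 of 6 fits leaving out a library, the fit without DKO replicate 2 (adjusted p 0.0234 to 0.138). The interaction of the KLHL6 and NOTCH2 labels was -1.31 ± 0.21 (adjusted p = 0.00111), and it stayed called in each of the 12 fits leaving out a library.

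KEAP1 was likewise higher under both single labels. The WT tumours held 1049, 1238 and 1106 normalised counts, labelled K6-KO 1528, 1451 and 1449, labelled N2-KO 1421, 1401 and 1422 and labelled DKO 1375, 1302 and 1129.8. All labelled K6-KO libraries lay above all others, and the labelled N2-KO libraries lay above all WT and DKO libraries. Against WT, KEAP1 was higher by 0.39 ± 0.09 in labelled K6-KO (adjusted p = 0.0076) and 0.33 ± 0.09 in labelled N2-KO (adjusted p = 0.0112), and the labelled DKO difference was 0.16 ± 0.09 (adjusted p = 0.245). The interaction was -0.55 ± 0.13 (adjusted p = 0.0113).

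KLHL14 went the other way in labelled K6-KO. The WT tumours held 179, 165 and 157 normalised counts, labelled K6-KO 117, 100.4 and 70.0, labelled N2-KO 215, 194 and 223 and labelled DKO 170.2, 140.5 and 177. The labelled K6-KO libraries were below all others and the labelled N2-KO libraries above all others. KLHL14 was lower in labelled K6-KO than in WT, at a log2 difference of -0.82 ± 0.17 (adjusted p = 0.00335) and higher in labelled DKO than in labelled K6-KO by 0.77 ± 0.17 (adjusted p = 0.00594). The labelled N2-KO difference from WT was 0.33 ± 0.17 (adjusted p = 0.138), and the interaction was 0.44 ± 0.23 (adjusted p = 0.236).

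CUL3 and RBX1 differed in no knockout comparison beyond the threshold. CUL3 lay between 1087 and 1382 normalised counts over the 12 libraries, and its difference from WT was -0.11 ± 0.09 in labelled K6-KO (95% interval -0.29 to 0.06), 0.09 ± 0.09 in labelled N2-KO (-0.09 to 0.26) and -0.11 ± 0.09 in labelled DKO (-0.28 to 0.07). RBX1 lay between 1107 and 1302 in 11 libraries, and at 1752 in WT replicate 1. The RBX1 ranges of all 4 groups overlapped.

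Counted by member, 3 of 5 were called in labelled K6-KO, 2 of 5 in labelled N2-KO and 0 of 5 in labelled DKO against WT, where 17.5%, 30.7% and 9.35% of all genes were (for labelled DKO, limma with 0 of 5 under an unadjusted p of 0.05, and 0 of 5 by edgeR and by DESeq2). Against the single labels, DKO had 2 of 5 called for K6-KO and 1 of 5 for N2-KO, with 10.8% and 6.81% of all genes, and the interaction had 2 of 5 with 10.8%. The 3 differences from WT share the WT libraries. Without WT replicate 1, the library least like its group, the labelled K6-KO differences were 0.44 for KLHL6 (adjusted p = 0.0321), 0.33 for KEAP1 (adjusted p = 0.00809) and -0.77 for KLHL14 (adjusted p = 0.00399). The labelled N2-KO differences were then 0.62 for KLHL6 (adjusted p = 0.00253) and 0.27 for KEAP1 (adjusted p = 0.0166). Summed stroma markers were 472 to 491 in WT, 537 to 662 in labelled K6-KO, 632 to 699 in labelled N2-KO and 372 to 513 in labelled DKO over 10 of 16 markers with a row, so they were higher in the same groups as KLHL6 and KEAP1. The summed B-lineage markers were 48541 to 63393 in WT, 58153 to 61369 in labelled K6-KO, 71617 to 83004 in labelled N2-KO and 59010 to 76841 in labelled DKO, above the WT range in every labelled N2-KO library. Myeloid and endothelial markers, 4 of 9 with a row, summed to 204 to 237 in WT, 235 to 322 in labelled K6-KO, 292 to 310.1 in labelled N2-KO and 205 to 279.8 in labelled DKO, likewise above the WT range in every labelled N2-KO library. CD8A, a marker on the T-cell list, stood at 94.1 to 109.8 in WT, 33.9 to 40.3 in labelled K6-KO, 77.9 to 87.8 in labelled N2-KO and 139 to 193 in labelled DKO, with CD3E at 1.74 to 19.5 over all libraries, in a sum of 3 of 8 list genes of 152 to 157, 61.1 to 73.8, 203 to 223 and 192 to 249. In labelled N2-KO, CD8A lay below the WT range and that sum lay above it. The part of these markers in the differences was not tested, and in bulk tumours fewer cells of a type and less RNA per cell cannot be told apart.

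**Figure D3:**
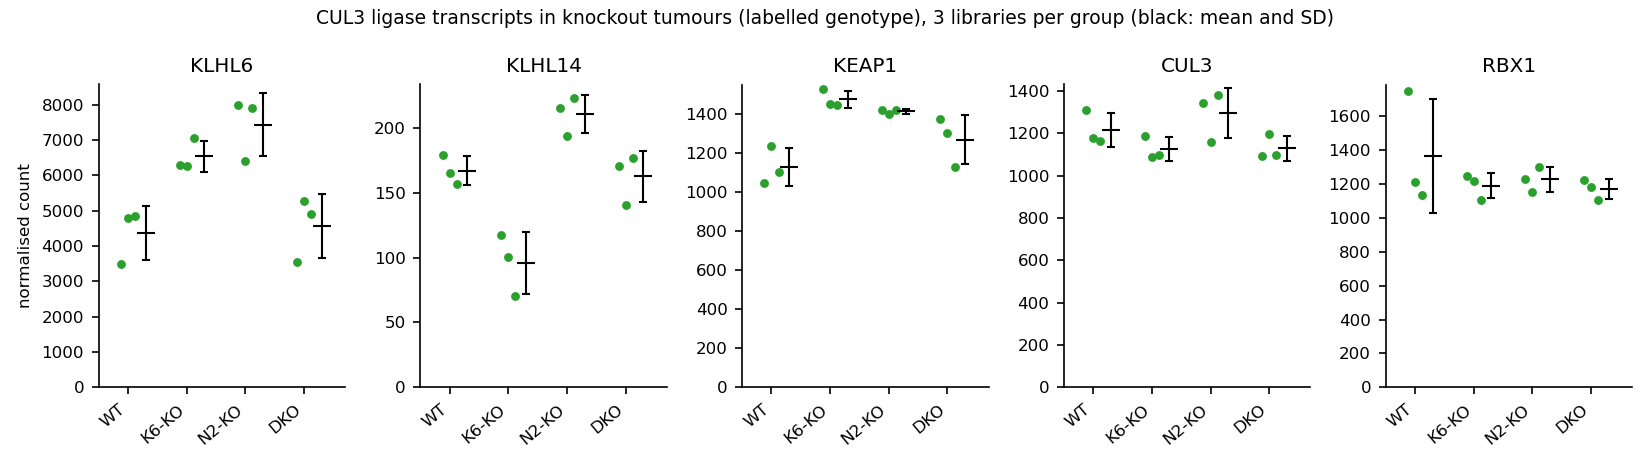
Normalised counts of the 5 members in the knockout tumours by labelled genotype (green points, libraries; black, mean and SD of 3 libraries). KLHL6 and KEAP1 are higher in the tumours labelled K6-KO and N2-KO than in WT, and KLHL14 is lowest in those labelled K6-KO.

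The other ligase genes were again described by list. Of all genes, 8.44% were higher and 9.02% lower in labelled K6-KO than in WT, 16.2% and 14.5% in labelled N2-KO and 5.5% and 3.86% in labelled DKO, and the interaction called 5.53% higher and 5.31% lower. In labelled N2-KO, 3 of the 8 genes in the cullin list were higher, CUL4B at 0.42 ± 0.08, CUL4A at 0.34 ± 0.08 and CUL1 at 0.24, and the RING gene RNF7 was lower (-0.69 ± 0.12). No E2 or ARIH enzyme was called against WT in any of the 3 labels. Of 34 other KLHL-family genes, 4 were higher and 6 lower in labelled K6-KO, with KLHL23 at 0.86 ± 0.14 and ENC1, a neuronal family member, at -1.32 ± 0.18. SPOP, the adaptor of nuclear CUL3 substrates, was higher in labelled K6-KO (0.40 ± 0.08), labelled N2-KO (0.47 ± 0.08) and labelled DKO (0.28). Of 23 NRF2 pathway genes, 3 were higher and 4 lower in labelled K6-KO and 5 higher and 7 lower in labelled N2-KO. The interaction called 3 higher and 4 lower, including TALDO1, an enzyme of the pentose phosphate pathway (-1.11 ± 0.23). Without DKO replicate 3 no NRF2 pathway gene was called in labelled DKO, where 2 were higher and 3 lower with it. Without WT replicate 1, labelled N2-KO had 3 other KLHL-family genes higher in place of 6 and 3 COP9 subunits higher in place of 1.

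In the mutant tumours, KLHL14 separated the variants in opposite directions. NOTCH2(WT) tumours held 222, 225 and 235 normalised counts, NOTCH2(S2156A) 155, 156 and 131, NOTCH2(R2400*) 163, 136 and 174 and NOTCH2(Q2140*) 308, 364 and 260.5. The S2156A and R2400* libraries were all below, and the Q2140* libraries all above, the NOTCH2(WT) range. KLHL14 was lower in S2156A, at a log2 difference of -0.62 ± 0.12 (adjusted p = 0.000342) and in R2400*, at a log2 difference of -0.53 ± 0.12 (adjusted p = 0.00401), and higher in Q2140* by 0.44 ± 0.12 (adjusted p = 0.00844), the last lost without Q2140* replicate 2 (adjusted p = 0.0768). Between variants, S2156A was below Q2140*, at a log2 difference of -1.06 ± 0.12 (adjusted p = 1.02e-07), Q2140* was above R2400* by 0.97 ± 0.12 (adjusted p = 1.88e-06), and S2156A stood against R2400* at -0.09 ± 0.12 (95% interval -0.32 to 0.14).

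CUL3 was higher in the Q2140* tumours, and the other 3 groups overlapped. It stood at 1403, 1385 and 1335 normalised counts in NOTCH2(WT), 1418, 1347 and 1296 in S2156A, 1410.1, 1389 and 1379.6 in R2400* and 1731, 1913 and 1882 in Q2140*. The Q2140* libraries lay above all 9 others. The difference from NOTCH2(WT) was 0.42 ± 0.05 in Q2140* (adjusted p = 3.42e-06), -0.02 ± 0.05 in S2156A (95% interval -0.13 to 0.09) and 0.02 ± 0.05 in R2400* (-0.09 to 0.13). Q2140* was also above R2400* by 0.40 ± 0.05 (adjusted p = 8.58e-06), and S2156A was below Q2140*, at a log2 difference of -0.44 ± 0.05 (adjusted p = 5.86e-07).

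KLHL6 was lower in the Q2140* tumours alone. NOTCH2(WT) tumours held 17890.0, 15452 and 17699 normalised counts, S2156A 15711, 15937 and 16091, R2400* 15547, 15039 and 16356 and Q2140* 12368, 13551 and 10843. The Q2140* libraries were below all others, and the other 3 groups overlapped. The difference from NOTCH2(WT) was -0.48 ± 0.07 in Q2140* (adjusted p = 8.66e-05), -0.09 ± 0.07 in S2156A (95% interval -0.23 to 0.04) and -0.12 ± 0.07 in R2400* (-0.25 to 0.01). S2156A was above Q2140* by 0.38 ± 0.07 (adjusted p = 0.000348), and Q2140* was below R2400*, at a log2 difference of -0.36 ± 0.07 (adjusted p = 0.0013). KLHL6-AS1 held 2 to 17 reads per library.

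RBX1 and KEAP1 were called in no comparison of the mutant tumours. KEAP1 lay between 1370.1 and 1627 normalised counts in all 12 libraries, and its difference between Q2140* and NOTCH2(WT) was -0.05 ± 0.06 (95% interval -0.16 to 0.07). RBX1 lay between 1388 and 1575 in 11 libraries and at 2018 in Q2140* replicate 3, with a difference of 0.16 ± 0.09 (-0.02 to 0.34, adjusted p = 0.235). Without Q2140* replicate 1, RBX1 was called higher in Q2140* than in NOTCH2(WT) by 0.26 (adjusted p = 0.0342), and likewise against R2400* (adjusted p = 0.0351) and S2156A (adjusted p = 0.0167).

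Counted by member, 1 of 5 was called in S2156A, 1 of 5 in R2400* and 3 of 5 in Q2140* against NOTCH2(WT), where 15.2%, 8.04% and 20.5% of all genes were. Between variants 3 of 5 were called for S2156A against Q2140* and 3 of 5 for Q2140* against R2400*, with 30.7% and 18.9% of all genes, and 0 of 5 for S2156A against R2400* with 4.76% (limma with 0 of 5 under an unadjusted p of 0.05, and 0 of 5 by edgeR and by DESeq2). The 3 differences from NOTCH2(WT) share those libraries. NOTCH2 RNA, which in these cells includes the expressed construct, was 15858 ± 567 in NOTCH2(WT), 16650.0 ± 1050.4 in S2156A, 26466 ± 2748 in R2400* and 59619 ± 4181 in Q2140*. The summed B-lineage markers were 91343 to 95960 in Q2140* and 74975 to 84652 in the other groups, and the summed stroma markers 924 to 1430.4 and 653 to 880.4. CD8A was 107 to 125 in NOTCH2(WT), 30.6 to 32.6 in S2156A, 57.1 to 87.0 in R2400* and 231 to 317 in Q2140*, the order of KLHL14 in these groups, while CD2, a T-cell defining gene, was at 0 to 0.941 over all libraries. The sum over the T and NK cell list, 7 of 8 genes with a row, was 268 to 282 in NOTCH2(WT) and 122 to 137 in S2156A. It was 181 to 214 in R2400* and 347 to 418 in Q2140*, so CD8A made up only part of it. The part of these levels in the results was not tested.

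**Figure D4:**
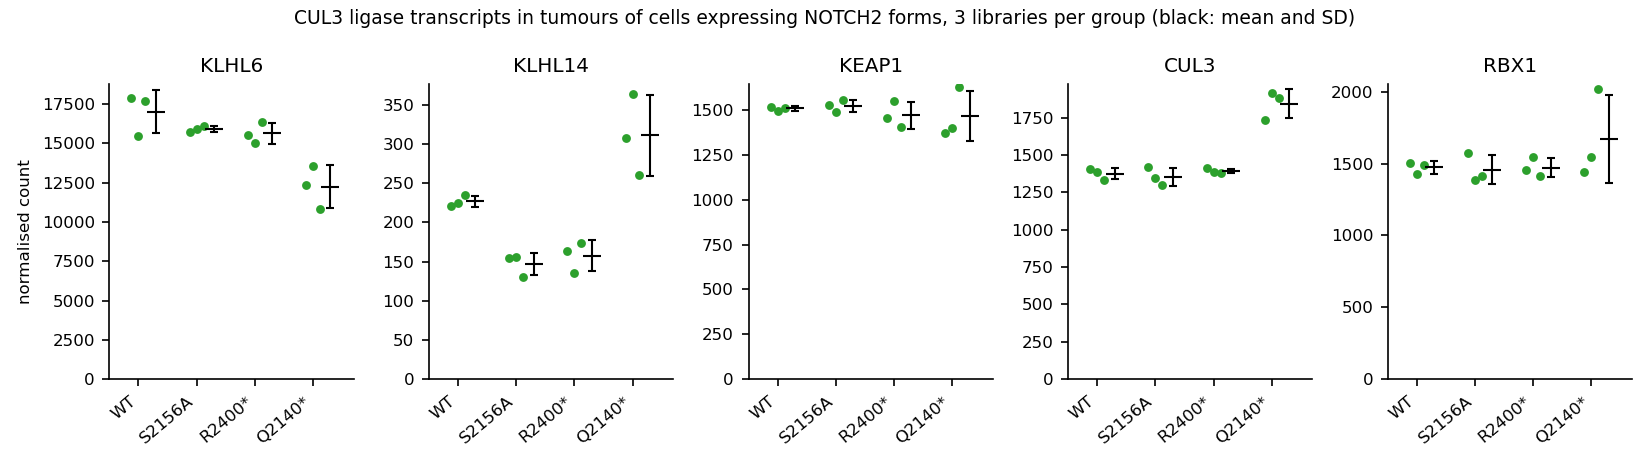
Normalised counts of the 5 members in tumours of cells expressing NOTCH2 forms (green points, libraries; black, mean and SD of 3 libraries). KLHL14 is lower than NOTCH2(WT) in S2156A and R2400* and higher in Q2140*, where CUL3 is higher and KLHL6 lower.

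Of all genes, 7.14% were higher and 8.06% lower in S2156A than in NOTCH2(WT), 3.73% and 4.32% in R2400* and 9.72% and 10.8% in Q2140*. Among the other ligase genes of the mutant tumours, COPS7B and COPS8, of the COP9 signalosome, were higher in Q2140* by 0.58 ± 0.07 and 0.51 ± 0.07, and no other of the 9 subunits was called there. KLHL26 was higher in S2156A (1.19 ± 0.19) and R2400* (0.99 ± 0.19), from a mean of 27.5 normalised counts in NOTCH2(WT). KLHL12, an adaptor for secretory coat proteins, was lower in S2156A, at a log2 difference of -0.61 ± 0.08. RHOBTB3 was higher in all 3 variants, by 0.86, 0.80 and 0.69. Of 23 NRF2 pathway genes, 2, 1 and 1 were higher and 0, 0 and 5 lower in S2156A, R2400* and Q2140*.

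Across the libraries of an experiment, the transcripts whose log2 levels followed KLHL6 most closely were CKB, SPRED2 and IKZF2 in coculture (Pearson r 0.90, 0.89 and 0.88 over 24 libraries), RP11-66B24.4, ADA and CR2 in the knockout tumours (0.95, 0.92 and 0.91 over 12) and DCAF5, MAP3K5 and ZNF106 in the mutant tumours (0.98, 0.96 and 0.96 over 12). For KLHL14 they were ATG4C, DIXDC1 and ZBTB22 in coculture (0.89, 0.88 and 0.87), GAB1, GRK2 and LMO4 in the knockout tumours (0.98, 0.97 and 0.97) and PPIG, AGBL5 and GCFC2 in the mutant tumours (0.97, 0.97 and 0.97). These were the highest of 9368 to 9797 transcripts with a mean of at least 100 normalised counts, and the libraries share their groups and, within an experiment, their normalisation. Between the members, KLHL14 ran against CUL3 (-0.80), KEAP1 (-0.78) and RBX1 (-0.53) in coculture, and with CUL3 in the knockout tumours (0.60) and the mutant tumours (0.79). KLHL6 ran with KEAP1 in the knockout tumours (0.68) and against CUL3 (-0.86) and RBX1 (-0.67) in the mutant tumours. The other correlations of KLHL6 and KLHL14 with members lay between -0.49 and 0.30.

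**Figure D5:**
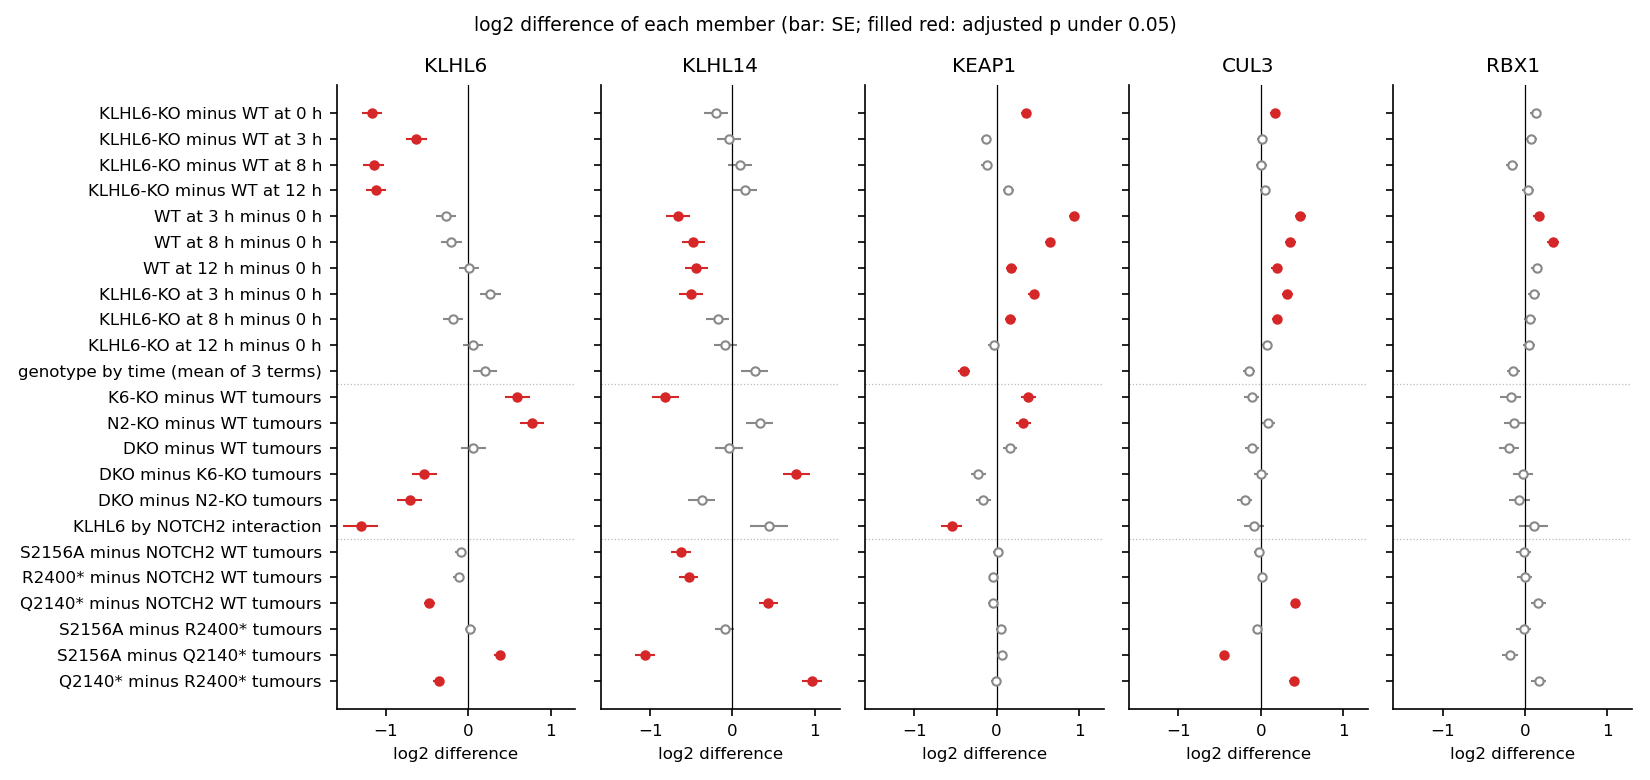
The log2 difference of each member (horizontal axis) in the 23 comparisons (rows), with bars for the SE. Filled red points have an adjusted p under 0.05, and RBX1 has such a point in WT cells at 3 and 8 h only, while CUL3 has none in the knockout tumours.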

How the data were processed

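Gene-level values of 48 poly(A) RNA libraries were analysed, prepared with a directional kit per the labels. The deposited signal values were read counts divided by 1 size factor per library: 100% were whole multiples of 1 read within 0.02 steps, so reads were recovered. STAR, SAMtools, DESeq2 and GRCh38 are named in the submitters' processing notes; the counter, annotation and strand setting are not given here in the sources used. Rows named as dates were left out. limma 3.58.1 (R 4.3.3; trend and robust) was fitted to log2(value + 2), per experiment over all its libraries with 1 coefficient per group, for genes at 10 or more in at least 3 libraries, with Benjamini-Hochberg adjustment over the 15032, 14005 and 15354 genes tested. Fold changes are on that log2 scale, which understates those of low genes. The fit was tested on simulated data. edgeR 4.0.16 and DESeq2 1.42.0 on the recovered reads, other pseudocounts, filters and scalings, the compared groups alone, a replicate block and each library left out were alternatives. No libraries were identical. Named genes outside the members were at most 4 called genes per list and comparison, those of smallest p, and the 3 most correlated transcripts. Members and lists were chosen with earlier results of these data known. KLHL14 is overlapped by antisense genes AC025887.2 and AC012123.1 and CUL3 by AC073052.2, which cannot be told apart without the strand setting. Promoters come from RefSeq.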

Additional observations from a re-analysis of the deposited data

Results flagged for a closer look

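Differences in the RNA levels of KEAP1 and KLHL6 varied between groups by a test of the difference itself. The course of KEAP1 over time differed between KLHL6-KO and WT cells, with a mean term of -0.40 (limma, adjusted p = 0.0004). In the knockout tumours the difference tied to the KLHL6 label depended on the NOTCH2 label for KLHL6 RNA, with an interaction of -1.31 (limma, adjusted p = 0.0011), and for KEAP1, with an interaction of -0.55 (limma, adjusted p = 0.011). All 3 stayed called in every fit that left out a library.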

How the results depend on the processing

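Of the values of the 5 members in the 23 comparisons under 8 other settings, 887 kept direction and call, 8 lost the call, 7 gained it and 3 changed sign. The calls lost were CUL3 in KLHL6-KO against WT at 0 h (0.17; adjusted p = 0.111 with no filter, 0.0681 in the compared groups alone), CUL3 in WT at 12 h (0.19; 0.0649 alone), KEAP1 in WT at 12 h (0.18; 0.0965 alone), KEAP1 in KLHL6-KO at 8 h (0.17; 0.0843 with no filter) and RBX1 in WT at 3 h (0.17; 0.0898 with no filter, 0.115 alone, and 0.16 with 0.0646 by DESeq2). KLHL6 gained a call in the compared groups alone at 3 h in WT (-0.27, adjusted p = 0.0136) and KLHL6-KO (0.27, adjusted p = 0.00196). The sign changed, near 0, for KLHL6 in WT at 12 h (-0.000214 with TMM scaling, -0.00544 with edgeR) and RBX1 in R2400* against NOTCH2(WT) (0.000174 with edgeR). The cause was not tested.

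Same-numbered libraries deviated together, with a correlation over 0.1, in 18 of 84 pairs in coculture, 3 of 18 in the knockout tumours and 0 of 18 in the mutant tumours, so the numbers were not taken to pair the samples. In coculture the median correlation was 0.055 for same-numbered and -0.025 for differently numbered libraries. With the replicate block KLHL6 was called in WT at 3 h (-0.27) and 8 h (-0.21), in KLHL6-KO at 3 h (0.27) and 8 h (-0.19) and by genotype and time (0.20; adjusted p = 0.00103, 0.0104, 0.00192, 0.0287 and 0.000202), and no other member call changed. Replicate 1 held the highest KLHL6 value in 7 of the 8 coculture groups, and the highest NOTCH2 value also in 7 of 8. The block raised the genes called in KLHL6-KO against WT at 3, 8 and 12 h from 1175, 652 and 510 to 1814, 1027 and 784, and by genotype and time from 1858 to 2821. In the compared groups alone the genes called went from 1175 to 2074 for KLHL6-KO against WT at 3 h, from 1310 to 231 for DKO against WT, from 2445 to 1291 for K6-KO against WT, from 954 to 1436 for DKO against N2-KO, from 2908 to 1600 for Q2140* against R2400* and from 2333 to 3914 for S2156A against NOTCH2(WT). edgeR on the recovered reads called 547 to 8377 genes over the 23 comparisons, each within 1.5 times the limma count. Genotype by time was not run with DESeq2 or in compared groups alone, and the tumour interaction already uses all 4 groups.

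Leaving out 1 library at a time left 726 member values as they were, and 11 gained a call, 30 lost it and 43 changed sign. For KLHL6 the log2 differences ranged from -0.64 to -0.36 (DKO against K6-KO), from -0.82 to -0.54 (DKO against N2-KO), from -0.095 to 0.23 (DKO against WT), from 0.44 to 0.68 (K6-KO against WT), from -0.0037 to 0.10 (KLHL6-KO at 12 h against 0 h), from -0.0031 to 0.057 (S2156A against R2400*), from -0.098 to 0.10 (WT at 12 h against 0 h), from -0.38 to -0.18 (WT at 3 h against 0 h), from -0.36 to -0.11 (WT at 8 h against 0 h), from 0.11 to 0.31 (genotype by time). For KLHL14 the log2 differences ranged from -0.11 to 0.058 (DKO against WT), from -0.65 to -0.38 (KLHL6-KO at 3 h against 0 h), from -0.19 to 0.084 (KLHL6-KO against WT at 3 h), from 0.32 to 0.56 (Q2140* against NOTCH2(WT)), from -0.51 to -0.36 (WT at 12 h against 0 h). For KEAP1 the log2 differences ranged from -0.098 to 0.022 (KLHL6-KO at 12 h against 0 h), from 0.15 to 0.20 (KLHL6-KO at 8 h against 0 h), from -0.12 to 0.00051 (Q2140* against NOTCH2(WT)), from -0.085 to 0.039 (Q2140* against R2400*), from -0.00024 to 0.032 (S2156A against NOTCH2(WT)), from 0.13 to 0.25 (WT at 12 h against 0 h). For CUL3 the log2 differences ranged from -0.038 to 0.046 (DKO against K6-KO), from 0.17 to 0.24 (KLHL6-KO at 8 h against 0 h), from 0.14 to 0.19 (KLHL6-KO against WT at 0 h), from -0.018 to 0.10 (KLHL6-KO against WT at 12 h), from -0.0079 to 0.026 (KLHL6-KO against WT at 3 h), from -0.038 to 0.058 (KLHL6-KO against WT at 8 h), from -0.0013 to 0.035 (R2400* against NOTCH2(WT)), from -0.056 to 0.0086 (S2156A against NOTCH2(WT)), from 0.14 to 0.26 (WT at 12 h against 0 h). For RBX1 the log2 differences ranged from -0.072 to 0.020 (DKO against K6-KO), from -0.29 to 0.019 (K6-KO against WT), from -0.086 to 0.23 (the tumour interaction), from 0.077 to 0.23 (KLHL6-KO against WT at 0 h), from -0.0018 to 0.087 (KLHL6-KO against WT at 12 h), from -0.25 to 0.065 (N2-KO against WT), from 0.020 to 0.26 (Q2140* against NOTCH2(WT)), from 0.022 to 0.26 (Q2140* against R2400*), from -0.036 to 0.026 (R2400* against NOTCH2(WT)), from -0.072 to 0.018 (S2156A against NOTCH2(WT)), from -0.28 to -0.036 (S2156A against Q2140*), from -0.071 to 0.020 (S2156A against R2400*), from 0.089 to 0.24 (WT at 12 h against 0 h), from 0.11 to 0.26 (WT at 3 h against 0 h), from -0.24 to -0.089 (genotype by time). Genes called moved by over 1.5 times in 12 comparisons. They ranged from 424 to 1591 for DKO against WT (moved so far without DKO replicate 2 or 3), from 423 to 1360 for DKO against N2-KO (DKO replicate 1 or 3, any N2-KO library), from 799 to 1287 for DKO against K6-KO (DKO replicate 3, any K6-KO library), from 1131 to 2776 for K6-KO against WT (K6-KO replicate 1 or 3) and from 760 to 2410 for the tumour interaction (WT replicate 1, DKO replicate 1, K6-KO replicate 1 or 3, N2-KO replicate 1 or 3). For the mutants they ranged from 255 to 1052 for S2156A against R2400* (R2400* replicate 1, any S2156A library), from 716 to 1293 for R2400* against NOTCH2(WT) (NOTCH2(WT) replicate 1 or 3) and from 2063 to 2957 for Q2140* against NOTCH2(WT) (NOTCH2(WT) replicate 1). In coculture they ranged from 647 to 1035 for KLHL6-KO against WT at 3 h (KLHL6-KO replicate 2 or 3, WT replicate 1 or 2), from 381 to 659 at 8 h (KLHL6-KO replicate 1 or 3), from 282 to 572 at 12 h (KLHL6-KO replicate 3) and from 1184 to 2665 for genotype by time (replicate 2 of either genotype at 0 h). With 46 to 98 reads per library in coculture, KLHL14 has the widest counting error of the members, and with n = 3 per group a difference that was not called is not shown to be absent.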
